A study of Danio rerio with 10 samples.

Results

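Acetylation of histone H3 at lysine 27 (H3K27Ac) was compared between 2 times after injury, 9 and 18 hours post-injury (hpi), in an extraocular muscle of adult zebrafish, the lateral rectus. The comparison takes every one of the 41586 H3K27Ac regions in the table of that mark, out of 78452 regions of 3 marks in the series, and 31189 regions passed a signal filter and are called kept regions below. Regions were not chosen by how they changed: for each one the average tag pileup at 18 hpi was set against that at 9 hpi. The study also mapped trimethylation of H3 at lysine 4 (H3K4me3) and lysine 27 (H3K27me3) and compared uninjured with injured muscle, with 10 libraries in all, 1 of them input. The fish were aged 4 to 18 months, and the labels name both wild-type and α-actin::EGFP transgenic animals without giving which fish went into which pool. In the 9 hpi group about 50% of the muscle had been cut out in both eyes and tissue of 192 fish was pooled. The 18 hpi group had the same operation and pooled 200 fish. The control pooled 119 fish. The labels carry the treatment word injury for the control too, while the design text sets muscle before injury against muscle after it. Each group has 1 library, so the differences below were not checked in replicates and carry no p-value. The antibody against H3K27Ac was a rabbit polyclonal. The label calls the sample adult muscle cells, but it is tissue, in which fewer cells of a type and less acetylation per cell cannot be told apart.

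H3K27Ac lies at active promoters and at active enhancers, the distal elements that raise transcription of genes, and it is placed by p300 and CBP and removed by histone deacetylases. Zebrafish extraocular muscle regrows after partial excision: surviving fibres lose their contractile apparatus, the cells take on a mesenchymal, migrating form, divide, and later form muscle again, while leukocytes enter the wound early.

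Values are the authors' average tag pileup over a region, and the control value is given beside the injured ones. A change is the log2 ratio of 18 over 9 hpi, with a pseudocount of 1 added to each average, and the median change of kept regions was subtracted from it. This relative log2 change is what "change" means below, and a region is called higher or lower only at 2-fold or more, a relative log2 change of 1 or −1. The median subtracted was −0.35, and 78.3% of kept regions had a lower average at 18 hpi as deposited, so a relative change of 0 is a small drop in the deposited values. By maximum pileup the median change was −0.66. As deposited, 11.5% of kept regions had a higher average and a lower maximum at 18 hpi. The depth of the libraries is unknown, and so is how strongly each immunoprecipitation enriched the mark. Their part in these shifts, and in the differences by signal and position below, was not tested.

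Called intervals differed between the injured libraries in number and width. There were 34393 intervals at 9 hpi, with a median length of 1800 bp, and 28964 at 18 hpi, with a median length of 2800 bp. Together they covered 84.97 Mb at 9 hpi and 111.2 Mb at 18 hpi, and the median average pileup of an interval was 18.75 at 9 hpi and 13.90 at 18 hpi. The 18 hpi library thus had fewer, longer and less dense intervals. Of the 9 hpi intervals 82.05% overlapped one at 18 hpi, and of the 18 hpi intervals 89.77% overlapped one at 9 hpi, with at least 1 bp shared. Muscle markers were present in the tissue: 43 of 74 sarcomere genes had an H3K27Ac region within 5000 bp of the gene start. At acta1a, a skeletal muscle actin, the average was 18.2 in control, 9.48 at 9 hpi and 5.97 by 18 hpi. Of the 43 regions 31 passed the signal filter. The share does not single out muscle: 24 of 33 neutrophil and 22 of 34 endothelial genes had such a region, but 10 of 38 genes of eye, skin and other neighbouring tissue.

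Few regions moved by 2-fold between the injured times. Of the 31189 kept regions 293 were higher at 18 hpi, or 0.939%, and 306 were lower, or 0.981%. The limit lies farther from 0 than the median subtracted. By construction, then, all 306 lower regions had a lower average as deposited, and none of the 293 higher regions did. The quartiles of the relative log2 change of all kept regions were −0.27 and 0.30. Just inside the limit, a region at 7.03 at 9 hpi and 11.6 at 18 hpi was counted as higher, and just outside it a region at 8.85 and 14.5 was not. On the other side, a region at 38.3 and 14.4 was counted as lower and one at 46.3 and 17.6 was not.

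**Figure D1:**
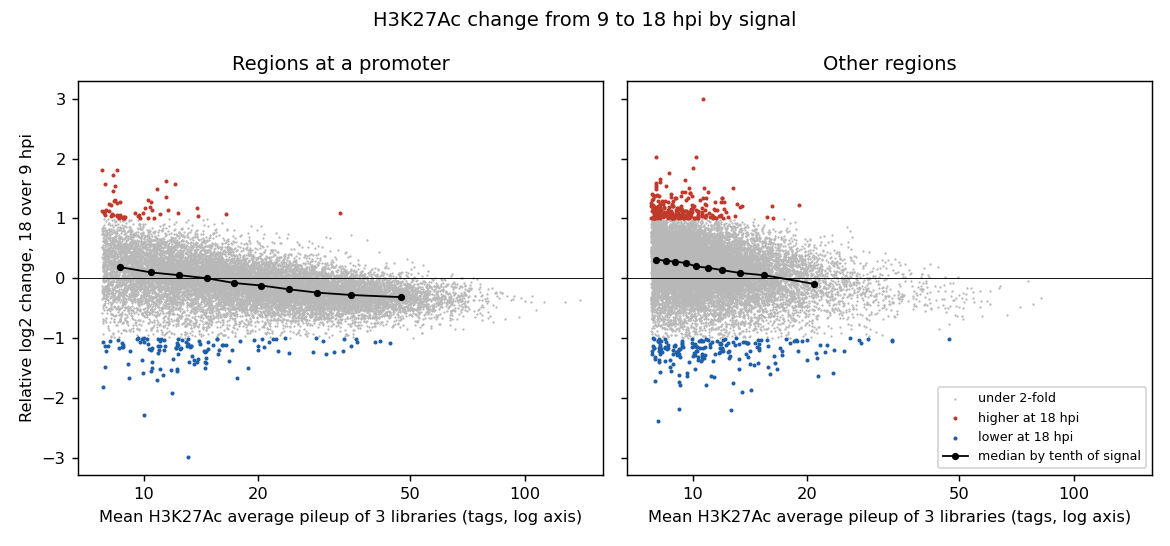
Relative log2 change of H3K27Ac from 9 to 18 hpi (vertical axis) against the mean average pileup of the 3 libraries (horizontal, log axis, tags) for each kept region, at promoters (left) and elsewhere (right). Red points are the 293 regions at least 2-fold higher at 18 hpi, blue points the 306 at least 2-fold lower, and the black line joins medians over 10 equal parts of signal; medians decline as signal increases, and red points gather at weak regions.

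The median change differed by signal, a mean that itself includes the 9 and 18 hpi values. With kept regions cut into 5 equal parts by mean signal, the median changes from weakest to strongest were 0.28, 0.18, 0.08, −0.08 and −0.26. The strongest part had a median average of 29.9 in control, 41.1 at 9 hpi and 26.8 by 18 hpi. The weakest part had 9.37, 8.10 and 7.56. Because the lists described below differ in signal, each median is also given after centring within 10 equal parts of signal, called the like-signal value. Regions below the filter were centred with the weakest part.

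Promoter regions had a lower median change than other regions, and as deposited, before centring, both medians were below 0 (−0.48 and −0.19). The 15681 kept regions with a promoter count in the table had a median average of 18.4 in control, 22.4 at 9 hpi and 16.1 by 18 hpi and a median change of −0.13. The 15508 other regions had 11.7, 11.12 and 9.73 and a median change of 0.16. With like-signal centring the values were −0.02 and 0.03. With each kind cut into 5 equal parts by the control average, which the change does not use, the promoter part with a median control of 13.38 had a median change of 0.0084 and the non-promoter part at 14.77 had 0.18. Promoter regions at 18.42 in control had −0.09, and non-promoter regions at 20.56 had 0.04. At each of these like control levels the promoter median was the lower one. The promoter parts also had the greater median average at 9 hpi, 15.02 beside 9.34 and 21.47 beside 12.83. Signal at 9 hpi, which the change uses, was thus not held equal. Of promoter regions 0.357% were higher (exact 95% interval 0.270 to 0.464, counting error only) and 0.784% lower (0.652 to 0.935). Of the others 1.53% were higher (1.34 to 1.73) and 1.18% lower (1.02 to 1.36). Which direction was the more common depended on the scale. By maximum pileup 1.397% of promoter regions were higher and 0.982% lower. With like-signal centring 0.445% of the other regions were higher and 2.14% lower. By distance to the nearest gene start, the median ran from −0.21 in the nearest class, within 500 bp, to 0.21 in the farthest.

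The choice of higher and lower regions sets the order of their 9 and 18 hpi values, and in part their intervals, which were called on the same libraries, so what follows is a description. The lower regions had a median average of 8.0 in control, 20.2 at 9 hpi and 6.204 by 18 hpi. The higher regions had 8.504 in control, 6.50 at 9 hpi and 12.4 by 18 hpi. The control medians of the 2 kinds were thus alike, and both were below the 14.2 of all kept regions. The filter is on the mean of the 3 libraries, so filter and choice bear on these control values as well. An interval was called at 9 hpi and not at 18 hpi in 78.1% of lower regions (73.1 to 82.6), against 14.1% of kept regions. An interval was called at 18 hpi and not at 9 hpi in 65.5% of higher regions (59.8 to 71.0), against 3.42% of kept regions. Regions with an interval in all 3 libraries, 19959 in number, rarely passed the limit: 30 were higher and 43 lower.

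Position and length separated them as well. Of higher regions 19.1% were at a promoter (14.8 to 24.1) and of lower ones 40.2% (34.7 to 45.9), against 50.3% of kept regions. The nearest gene start lay over 10000 bp away for 52.6% of higher regions (46.7 to 58.4), for 37.9% of lower ones (32.4 to 43.6) and for 34.6% of kept regions. Lower regions were short: 48.0% were under 1000 bp (42.3 to 53.8), against 16.7% of higher regions (12.6 to 21.5) and 7.77% of kept regions. Without regions under 1000 bp, a limit chosen after seeing this, 244 were higher and 159 lower. Mean signal was at or above the median of the whole table in 17.7% of higher regions and 60.5% of lower ones (54.7 to 66.0). The share of kept regions was 66.7%.

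The greatest rise and fall of all were at short regions. A region of 400 bp on chromosome 1, 19869601 to 19870000 in danRer10, had an average of 9.92 in control, 2.31 at 9 hpi and 19.7 by 18 hpi, a change of 2.99. It was thus near empty at 9 hpi alone. The greatest fall, of −2.98, was at a region of 200 bp on chromosome 4, from 58998801 to 58999000, which is the start region of LOC103910834 and had 6.17 in control, 30.8 at 9 hpi and 2.17 by 18 hpi. Here the 9 hpi value alone was high.

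To follow genes, each gene was given a start region, the H3K27Ac region nearest to its start within 5000 bp by the deposited distance. That distance runs to the centre of the region, so a start region need not cover the gene start. In all 17141 genes had one, which made 14476 distinct regions without a signal filter: 74 of them were higher, or 0.511%, and 110 lower, or 0.76%. Of the 13383 that were also kept regions, 30 were higher, or 0.224%, and 89 lower, or 0.665%. The median change of all start regions was −0.14, and −0.03 with like-signal centring. These are the background for 29 gene lists, which hold 1204 distinct start regions. In them 9 start regions were higher, or 0.748% (0.342 to 1.41), and 8 lower, or 0.665% (0.287 to 1.31), which is near the background.

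**Figure D2:**
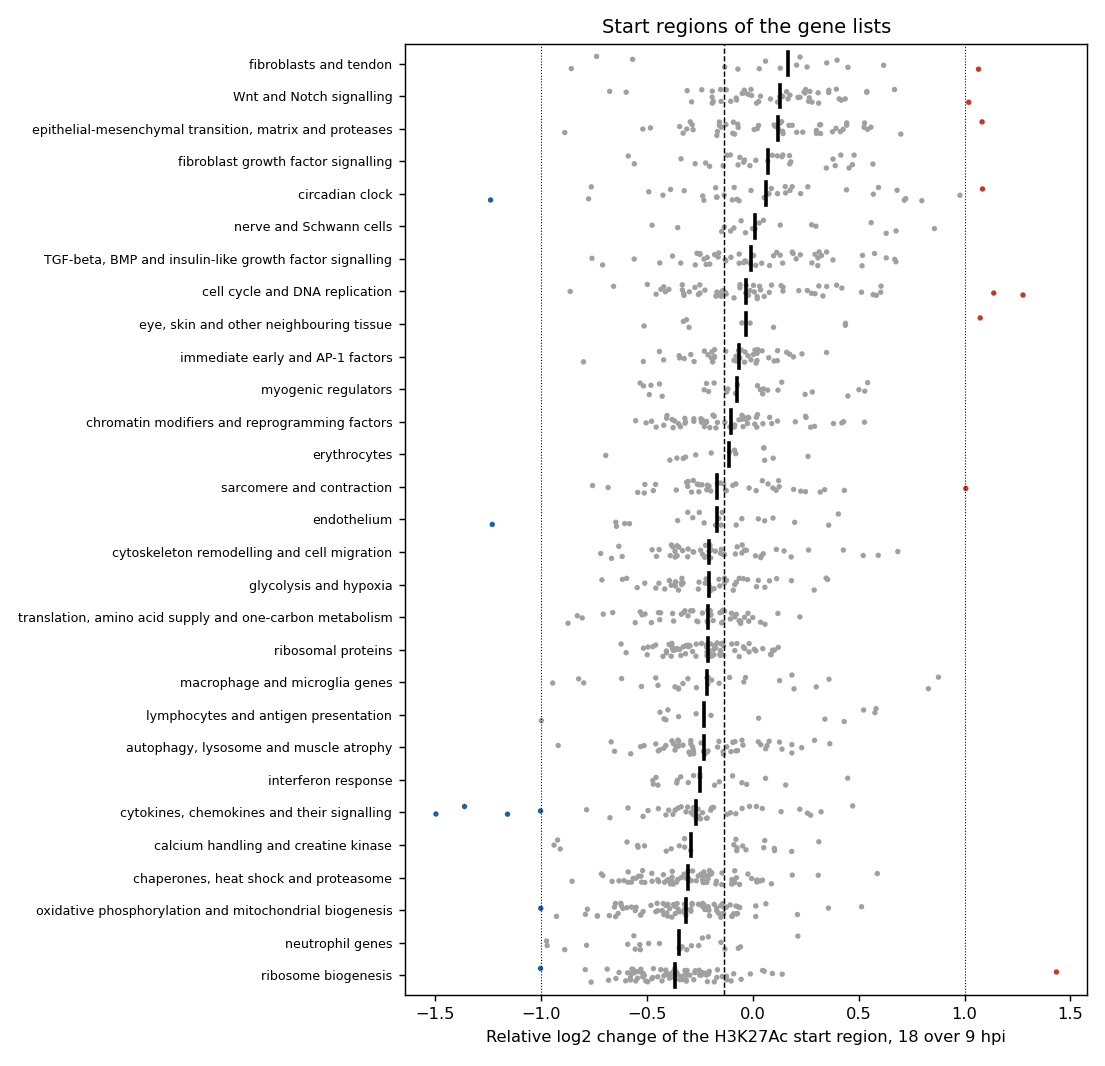
Relative log2 change from 9 to 18 hpi of each H3K27Ac start region (points) in the 29 gene lists, ordered by median (black bars). Red and blue points are at least 2-fold higher or lower, dotted lines mark the 2-fold limit and the dashed line is the median of all start regions, −0.14; list medians lie between −0.37 for ribosome biogenesis and 0.17 for fibroblasts and tendon.

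Cytokine genes held 4 of the 8 lower start regions in the lists. Of 45 start regions of cytokines, chemokines and their signalling, 4 were lower, or 8.89% (2.48 to 21.2), and none was higher, beside a background of 0.76% lower. The median change of the list was −0.27 and the like-signal value −0.11, with a median average of 15.4 in control, 26.4 at 9 hpi and 17.1 by 18 hpi. The 4 were il6r, il12ba, il6 and il10. Among these, il12ba and il6 had a mean signal below the filter. Of the 37 start regions of the list that were also kept regions, 2 were lower, beside 0.665% of all kept start regions. With a pseudocount of 5, only 3 start regions of all 29 lists passed 2-fold in either direction, in place of 17. The 4 cytokine regions thus did not all pass there.

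The receptor of interleukin 6, il6r, had an average of 15.2 in control, 32.8 at 9 hpi and 8.42 by 18 hpi, a change of −1.496 at a region of 1000 bp centred at −4277 bp from the gene start, where minus is upstream (chromosome 16, 18420201 to 18421200). Its 18 hpi value was the lowest of the 3. Its ligand il6, a cytokine made early in inflammation, had 2.13, 14.2 and 4.37, a change of −1.16, with the region at −147 bp (chromosome 19, 2775801 to 2777200). At il12ba, a subunit of interleukin 12, the average was 3.23 in control, 12.8 at 9 hpi and again 3.23 by 18 hpi, a change of −1.36. Its region was 400 bp long at −1089 bp, and by maximum pileup the change was −0.99. For both ligands the 9 hpi library stood alone, with an interval called there and none at 18 hpi. The anti-inflammatory cytokine il10 had 4.54, 18.1 and 6.47, a change of −1.002 at the limit (chromosome 11, 20977401 to 20980200). Its region lay at 1329 bp, so of the 4 only il6 had its region within 1000 bp of the gene start. Other members did not pass 2-fold: il1b, a first-line inflammatory cytokine, had 1.46, 11.6 and 4.75, a change of −0.78, tnfb had a change of −0.02, and stat3, the transcription factor downstream of interleukin 6, had −0.12. The greatest positive change in the list was 0.47 at ccl25b, a chemokine with 9.51, 3.41 and 3.80. For il1b and ccl25b the mean signal was also below the filter.

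Neutrophil genes had no start region past 2-fold, but 23 of 24 changes were below 0, beside 65.4% of all start regions. Their median average was 9.09 in control, 20.5 at 9 hpi and 13.1 by 18 hpi, so the list stayed above control at both injured times. The median change was −0.35, and −0.40 with like-signal centring, beside −0.14 and −0.03 for all start regions. The closest to the limit were illr4, a lectin-like receptor gene, with 1.89, 8.90 and 2.96 and a change of −0.97, and pglyrp5, a peptidoglycan recognition protein, with 3.96, 34.7 and 13.3 and a change of −0.97. The matrix protease mmp9 had 2.08, 10.2 and 3.74, a change of −0.89. For illr4 and mmp9 the mean signal was below the filter. Members of textbook standing moved less: csf3r, the receptor of granulocyte colony-stimulating factor, had a change of −0.26 and ncf1, a subunit of the NADPH oxidase, −0.24. The member with the greatest value was hsd3b7, at 0.21.

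Macrophage and microglia genes also had none past the limit among 28 start regions, with a median average of 9.60 in control, 18.6 at 9 hpi and 11.9 by 18 hpi and a median change of −0.21 (like-signal −0.22). Both copies of the gene for PU.1, a transcription factor of myeloid cells, stood at opposite ends. At spi1a the average was 8.02 in control, 28.1 at 9 hpi and 10.8 by 18 hpi, a change of −0.94. At spi1b it was 1.69, 11.5 and 16.4, a change of 0.83. The spi1b region thus had its highest level at 18 hpi and the spi1a region at 9 hpi. These were unlike regions: that of spi1b was 400 bp at −2378 bp, with no interval called at 9 hpi. That of spi1a was 4800 bp at −1004 bp, with an interval at both injured times. The lipid carrier apoeb had 7.59, 7.69 and 11.5, a change of 0.88, and ms4a17a.10 had 13.9, 26.6 and 11.3, a change of −0.82. The macrophage genes csf1ra, irf8 and mpeg1.1 had changes of −0.11, −0.19 and 0.30. Neutrophil and macrophage lists were above control at 9 hpi beside the fallen cytokine regions, and the part of these cells in the cytokine values was not tested.

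**Figure D3:**
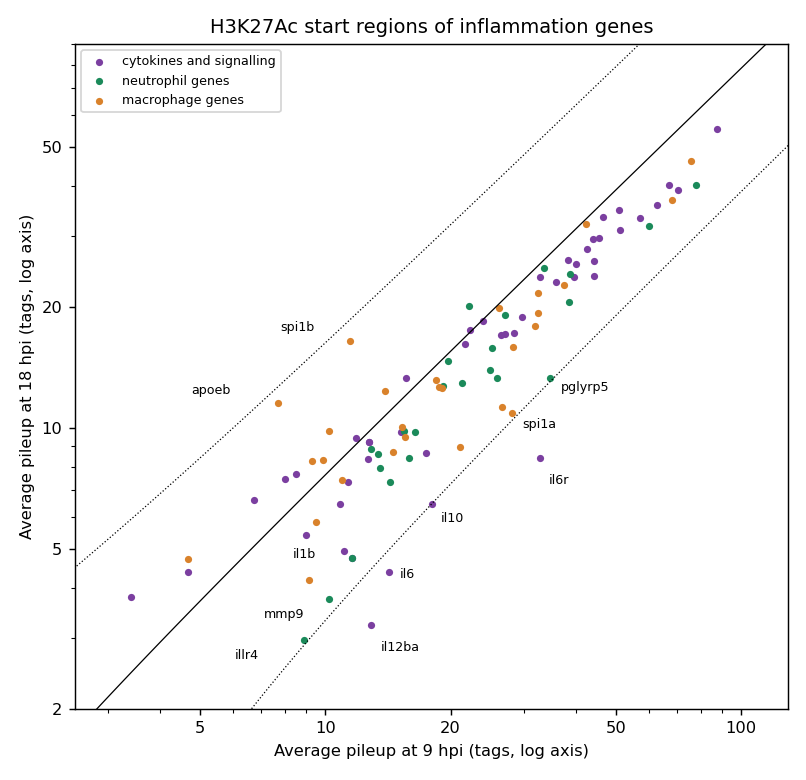
Average H3K27Ac pileup at 18 hpi (vertical, log axis, tags) against 9 hpi (horizontal, log axis, tags) at start regions of cytokine (purple), neutrophil (green) and macrophage (orange) genes. The solid line is no change relative to the median of kept regions and the dotted lines are the 2-fold limits; il6r, il12ba, il6 and il10 lie on or below the lower limit, and spi1b and apoeb lie above the solid line.

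Interferon response genes, with 19 start regions, had a median change of −0.25 (like-signal −0.15) and none past the limit. The ends of the list were gbp1, an interferon-induced GTPase, with 11.9, 18.99 and 10.3 and a change of −0.47, and irf1a, an interferon regulatory factor, with 5.60, 10.4 and 11.2 and a change of 0.45. The irf1a region was centred at −4965 bp. Lymphocyte and antigen presentation genes, with 14 start regions, had a median of −0.23 (like-signal −0.17) and none past the limit. The one nearest to it, cd3eap at −0.9985 with 36.4, 83.8 and 32.3, was just short of 2-fold, and despite its name it encodes a subunit of RNA polymerase I. The T cell kinase genes lck and zap70 were at 0.58 and 0.58. Their averages were 4.07 and 12.7 at 9 hpi and 4.96 and 15.0 at 18 hpi. At lck the mean signal was below the filter. Immediate early and AP-1 factors, 47 start regions, had a median change of −0.07 and a like-signal value of 0.12. Their level was 24.97 in control, 34.95 at 9 hpi and 26.4 by 18 hpi by the median. Within them runx1, a transcription factor of blood formation, had 22.4, 64.6 and 28.6, a change of −0.80, and mycn, a growth-promoting factor, had 12.4, 14.8 and 14.8, a change of 0.35.

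Genes of the circadian clock held 1 higher and 1 lower among 38 start regions, each 2.63% (0.067 to 13.8). The background of 0.511% higher and 0.76% lower lies within that interval. The roles below were assigned after the values had been seen. The clock runs on a loop in which CLOCK and BMAL proteins activate period and cryptochrome genes, whose products repress them, while NR1D proteins repress and ROR proteins activate the BMAL genes. The repressor per1a had an average of 54.5 in control, 16.3 at 9 hpi and 27.8 by 18 hpi, a change of 1.08 at chromosome 10, 22861201 to 22864400. Its level was thus lowest at 9 hpi and still below control at 18 hpi. The receptor rorcb had 27.5, 34.1 and 10.7, a change of −1.24 at chromosome 2, 49683201 to 49685400, and a region upstream of it, with 12.22, 14.8 and 4.53, changed by −1.16. Both of these were lowest at 18 hpi, while another rorcb region, at 39829 bp, had 11.83, 24.87 and 14.39, a change of −0.40.

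The remaining clock genes stayed under 2-fold, and those given a role are described as values. The roles do not cover all 38 start regions of the list, and no cryptochrome gene is among the genes given a role. Of all start regions 34.6% had a change above 0, and 39.2% by maximum pileup, 10.7% as deposited and 45.6% with like-signal centring. Among 6 activators none had a change above 0, with a median of −0.31, although 2 were above 0 with like-signal centring. The lowest value among them was at arntl2, a BMAL gene, with 18.4 in control, 52.0 at 9 hpi and 23.5 by 18 hpi and a change of −0.76. For arntl1b and arntl1a, the other BMAL genes, the changes were −0.49 and −0.39, and for clockb −0.24. All 4 period genes with a start region were above 0: after per1a came per1b, with 34.7, 22.1 and 26.4 and a change of 0.59, per3 with 52.6, 34.7 and 37.1 and 0.44, and per2 with 0.12. In each of the 4 the control value was the highest. Other repressors of CLOCK and BMAL were above 0 in 3 of 3, led by ciarta at 0.80 with 21.1, 12.9 and 17.9. NR1D genes were above 0 in 3 of 4, with nr1d2b at 0.68 and nr1d2a at 0.57. PAR bZIP activators, which carry the rhythm to output genes, were above 0 in 4 of 6, led by dbpa and dbpb at 0.72 each, and their antagonists of the NFIL3 type in 1 of 4, with nfil3-2 at −0.78. Of ROR genes 1 of 2 was above 0, with rorca at 0.08, and of kinases and ligases of the clock 2 of 4. The median of the whole list was 0.06, and 0.14 with like-signal centring. The counts by role depended on the scale. By maximum pileup, 3 of 4 period genes, 1 of 3 other repressors, 1 of 4 NR1D genes, 4 of 6 PAR bZIP genes and none of 6 activators were above 0. As deposited these counts were 3, 1, 2, 2 and 0. The times of day at which tissue was taken are not given in the sources used here, so time of day and time after injury cannot be told apart.

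**Figure D4:**
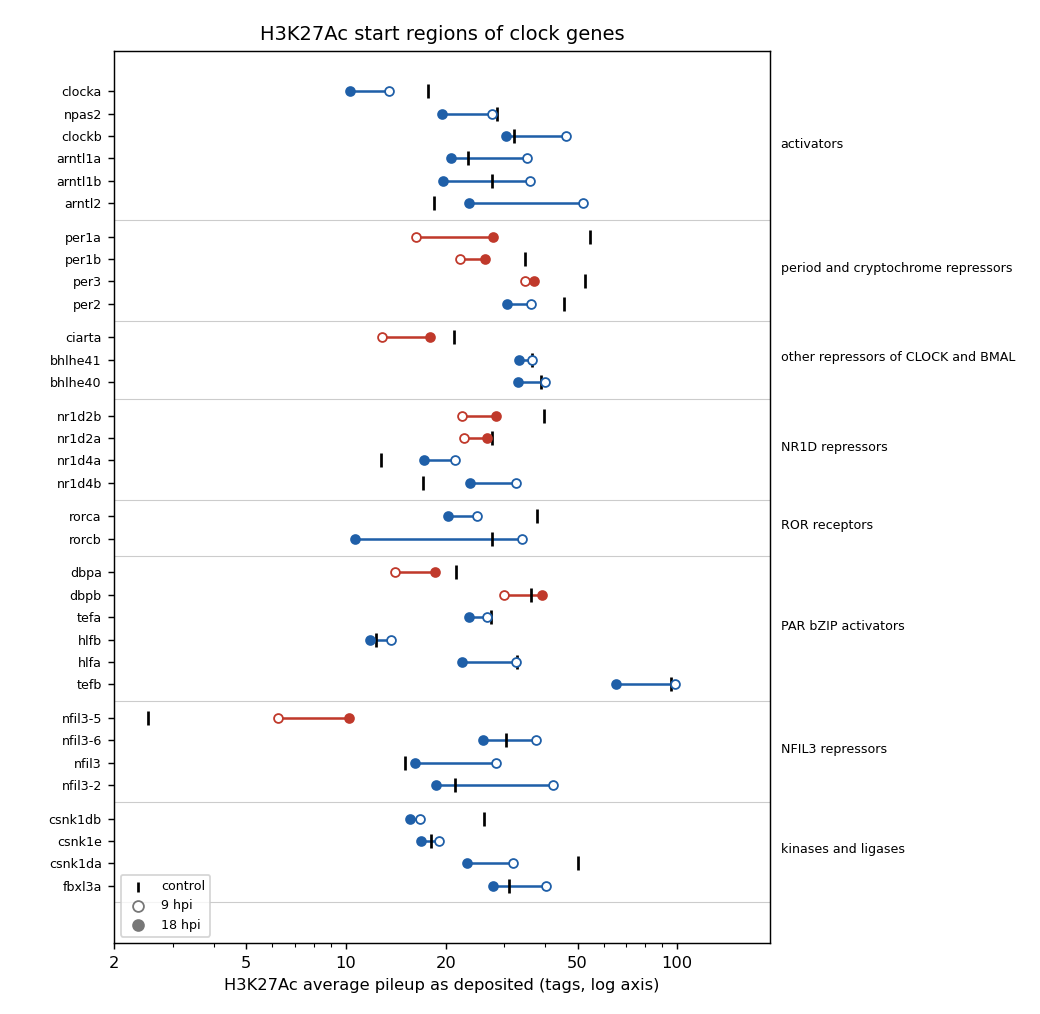
Average H3K27Ac pileup as deposited (tags, log axis) at start regions of clock genes grouped by role: control (bar), 9 hpi (open circle) and 18 hpi (filled circle), joined in red where 18 hpi is above 9 hpi and in blue where it is below. The period genes per1a, per1b and per3 have the 18 hpi circle to the right of the 9 hpi one, and the 3 BMAL genes (arntl1a, arntl1b, arntl2) have it to the left.

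Muscle genes had median levels far below control at both injured times, and 1 start region passed 2-fold between them. For 43 start regions of sarcomere and contraction genes the median average was 16.2 in control, 6.60 at 9 hpi and 4.88 by 18 hpi, with a median change of −0.17 and a like-signal value of −0.29. One was higher, myoz2a, a protein of the Z-disc, with 20.6, 3.14 and 5.52 and a change of 1.01 (chromosome 7, 69618001 to 69618800). It had no called interval at either injured time and stayed far below control. At the other end ldb3b, another Z-disc protein, had 33.6, 13.9 and 5.91, a change of −0.76. Calcium handling and creatine kinase genes, 25 start regions, had a median average of 20.7, 10.1 and 6.50, a median change of −0.29 and a like-signal value of −0.37. The sarcoplasmic reticulum protein gene srl had 40.5, 20.3 and 7.74, a change of −0.94. The calcium release channel gene ryr1b had 10.5, 46.4 and 18.6, a change of −0.92, and unlike the list it was highest at 9 hpi. Its region of 6000 bp was centred at −4416 bp, upstream of the start, and whether it belongs to ryr1b was not tested. The voltage sensor gene cacna1sa had a change of −0.91, and the muscle creatine kinase gene ckmb, with 19.8, 9.03 and 8.77, had 0.31.

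Myogenic regulators had no start region past 2-fold in 27, with a median change of −0.07 (like-signal −0.18) and a median average of 17.3 in control, 11.05 at 9 hpi and 7.31 by 18 hpi. The muscle determination factor myod1 had 26.4, 13.2 and 7.24, a change of −0.44, and the differentiation factor myog 21.6, 13.8 and 7.31, a change of −0.48. Both were at their lowest at 18 hpi. The satellite cell factor pax7b had 8.55, 6.07 and 4.75, a change of 0.05. The early determination factor myf5 had 9.27, 4.15 and 4.89, a change of 0.54 and a like-signal value of 0.25. Its region lay at 2646 bp, with no interval called at either injured time. For pax7b and myf5 the mean signal was below the filter. At the ends of the list were klhl40a, a sarcomere-stabilising protein, at −0.53 and smyd1a, a muscle methyltransferase, at 0.53 beside myf5.

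Cell cycle and DNA replication genes held 2 higher start regions of 61, or 3.28% (0.40 to 11.4), and none lower. The background of 0.511% higher lies within that interval. The mitotic cyclin gene ccna2 had 8.71 in control, 7.52 at 9 hpi and 15.2 by 18 hpi, a change of 1.28 (chromosome 14, 47386601 to 47387600), with an interval called at 18 hpi and none at 9 hpi. The mitotic cyclin gene ccnb1 had 6.86, 4.14 and 7.88, a change of 1.14, with a mean signal below the filter (chromosome 5, 54089801 to 54092600). Both were highest at 18 hpi, ccna2 above control and ccnb1 near it. The cyclins of the start of replication, ccne1 and ccne2, had 12.07 and 7.30 at 9 hpi and 14.6 and 8.76 at 18 hpi, changes of 0.61 and 0.58. Replication genes lay at the other end: mcm2, a subunit of the replicative helicase, had 19.9, 25.5 and 10.5, a change of −0.86, and rrm2, a subunit of ribonucleotide reductase, −0.66. The list median was −0.03 and the like-signal value 0.00, so the list as a whole had a median near 0.

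Genes for making ribosomes had the lowest median of the 29 lists, −0.37, and −0.20 with like-signal centring, over 84 start regions with a median average of 20 in control, 32.8 at 9 hpi and 19.4 by 18 hpi. Their median level at 18 hpi was close to control, and with like-signal centring the neutrophil list had the lowest median. One member was lower, noc3l, a nucleolar factor, with 31.6, 38.8 and 14.6 and a change of −1.002 at the limit. One was higher, nop14, a factor of the small subunit, with 5.49, 4.74 and 11.2 and a change of 1.43, at a weak region centred at −3090 bp from its start. Ribosomal proteins (71 start regions) had a median change of −0.21 and a like-signal value of −0.02, and translation, amino acid supply and one-carbon metabolism (52) had −0.21 and −0.02. None of either passed 2-fold. In the second of these mthfd1l, a mitochondrial one-carbon enzyme, had 4.28, 33.2 and 13.7, a change of −0.87, and eif2s1a, a translation initiation factor, had 35.2, 52.9 and 22.8, a change of −0.83. The lowest ribosomal protein gene was rps29 at −0.62 and the highest rpl5b at 0.12.

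Energy and protein quality genes had their highest median level in the 9 hpi library, as all start regions did. The median average of all start regions was 18.5 in control, 23.0 at 9 hpi and 16.3 by 18 hpi, so this order is not particular to these genes. Oxidative phosphorylation and mitochondrial biogenesis (87 start regions) had a median average of 33.9 in control, 46.5 at 9 hpi and 26.7 by 18 hpi and a median change of −0.32, but −0.07 at like signal. One was lower, cox6b1, a subunit of cytochrome c oxidase, with 17.9, 38.3 and 14.4 and a change of −1.001 at the limit. The nearest to it was ndufa4, with 7.26, 24.9 and 9.71 and −0.93, and citrate synthase, cs, was at the other end with 0.51. Chaperones, heat shock and proteasome (79) had a median of −0.30 (like-signal −0.09) and ends at hsp90aa1.1, a chaperone needed for muscle myosin folding in zebrafish, with 25.6, 24.6 and 10.1 and −0.85, and nfe2l2a, an oxidative stress factor, with 10.7, 20.5 and 24.4 and 0.59. The nfe2l2a region was centred at −4717 bp. Glycolysis and hypoxia (46) had −0.21 (like-signal −0.06), with lactate dehydrogenase, ldha, at 35.2, 54.8 and 25.7, a change of −0.71, and egln3, an oxygen sensor, at 0.35. Autophagy, lysosome and muscle atrophy (57) had −0.23 (like-signal −0.03), with the lysosomal enzyme neu1 at 19.7, 50.0 and 20.2, a change of −0.92, and the atrophy factor foxo3a at 0.36. In the last 3 lists no start region passed 2-fold.

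Fibroblast, tendon and matrix genes lay above the background median. Fibroblast and tendon genes (16 start regions) had the highest median of the lists, 0.17. With like-signal centring it was 0.03, and Wnt and Notch genes were highest. The list had a median average of 13.2 in control, 10.2 at 9 hpi and 9.28 by 18 hpi. One was higher, scxa, which encodes scleraxis, a transcription factor of tendon progenitors, with 3.77, 10.9 and 18.5 and a change of 1.07 (chromosome 19, 3060201 to 3063400). Its value was higher at each later time, and an interval was called at 18 hpi and not at 9 hpi. In the other direction were col12a1a, a collagen of tendon and muscle sheath, with 12.9, 14.0 and 5.52 and a change of −0.86, and thy1, a surface protein of fibroblasts, with 9.45, 29.4 and 13.3 and −0.74. The collagen I genes col1a1a and col1a2 and the matrix proteoglycan dcn had changes of 0.22, 0.06 and 0.35.

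Genes of epithelial-mesenchymal transition, matrix and proteases (51) had a median of 0.12 and a like-signal value of 0.03. One was higher, zeb2b, a transcription factor of that transition, with 11.84, 2.61 and 5.0 and a change of 1.08. It was a weak region with a mean signal below the filter, and its value was below control at both injured times. The intermediate filament gene vim had 32.2, 26.2 and 29.8, a change of 0.53, fibronectin, fn1a, had 0.01 and the gelatinase mmp2 had 0.39. The lowest was mmp9, given above. Genes for the cytoskeleton and for cell migration (53) had none past the limit and a median of −0.20 (like-signal −0.03). Their ends were tuba1b, a tubulin, with 17.4, 37.7 and 17.5 and −0.72, and fscn1a, an actin bundler of cell protrusions, with 12.8, 12.6 and 16.1 and 0.69.

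Signalling lists had 1 start region past the limit. Of 53 start regions of Wnt and Notch signalling genes 1 was higher, dlb, a ligand of Notch receptors, with 5.43, 7.99 and 13.3 and a change of 1.02 (chromosome 5, 36093601 to 36096200). It was at its highest at 18 hpi, where alone of the injured times an interval was called. The list median was 0.13, and 0.14 at like signal. Fibroblast growth factor signalling (31) had 0.07 and 0.00, with the muscle growth factors fgf6b and fgf6a at −0.59 and −0.56 and the receptor fgfr4 at 0.57. TGF-beta, BMP and insulin-like growth factor signalling (53) had −0.01 and 0.09. In it irs1, an adaptor of insulin receptors, had 55.5, 73.3 and 33.5, a change of −0.76, and tgfb1b, a ligand, had 16.4, 39.2 and 18.3, a change of −0.71. At the other end mstnb, the muscle growth inhibitor myostatin, had 11.4, 5.83 and 7.57, a change of 0.68. Chromatin modifiers and reprogramming factors (60) had −0.10 and 0.07 and none past the limit, between hdac1, a histone deacetylase, at −0.55 and sall4, a factor of stem cells, at 0.53.

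Other cells that the tissue could hold were followed by their marker lists. Endothelial genes (22 start regions) had a median average of 12.14 in control, 13.3 at 9 hpi and 8.64 by 18 hpi and a median change of −0.17 (like-signal −0.29). One was lower, sox18, a transcription factor of vessel cells, with 12.4, 23.7 and 7.27 and a change of −1.23 (chromosome 23, 8852601 to 8853600), whose 18 hpi value was the lowest. Nerve and Schwann cell genes (19) had 0.01 (like-signal −0.01) and none past the limit. They lay between the myelin gene mbpb, with 28.3, 73.0 and 40.8 and −0.48, and isl1, a factor of motor neurons. At isl1 the average was 3.39, 4.26 and 6.48, a change of 0.86, with a mean signal below the filter. Erythrocyte genes (15, of which 6 were kept regions) had −0.11 (like-signal −0.37), with the membrane skeleton gene sptb lowest at −0.69. At the other end a haemoglobin gene, hbaa1, had 8.68, 3.45 and 3.19, a change of 0.26. Its mean signal was below the filter, and no interval was called at either injured time. Genes of eye, skin and other neighbouring tissue (10) had −0.03 (like-signal −0.18). One of these was higher, krt4, a keratin of surface epithelium, with 15.0, 12.7 and 21.7 and a change of 1.07 (chromosome 6, 39310201 to 39317800), so it was above control at 18 hpi. Of 38 genes in that list 28 had no start region. The share of skin in the pools was not tested.

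Ranked over all genes with a start region whose mean signal was at or above the median of the table, 7 of the 12 greatest falls were at regions under 1000 bp. The 12, from −2.98 to −1.36, included il6r, 7 genes known by LOC or clone names, a phenylalanine tRNA gene, ggctb, pcdh1a3 and setd6. The glutathione cycle gene ggctb had 20 in control, 26.9 at 9 hpi and 5.91 by 18 hpi, a change of −1.67 at a region of 400 bp. The lysine methyltransferase gene setd6 had 21.7, 15.08 and 3.92, a change of −1.36, also over 400 bp. The gene pcdh1a3, of the clustered protocadherins, had 11.11, 23.9 and 6.42, a change of −1.40 over 600 bp centred at −4725 bp. Each of the 3 was lowest at 18 hpi. Among regions of 1000 bp or longer the greatest falls beside LOC, clone and zgc names were at il6r, evi5a, uevld, c18h3orf33, rorcb and bbip1. At evi5a, a regulator of small GTPases, the average was 6.03, 26.3 and 7.73, a change of −1.30, and at bbip1, a subunit of the ciliary BBSome, it was 26.5, 51.9 and 16.6, a change of −1.24. At uevld it was 28.8, 46.7 and 14.6, a change of −1.26.

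The greatest rises in the same ranking were fewer, and 8 of the 12 genes passed 2-fold. LOC103909303 and LOC101887022 share 1 region with 8.56 in control, 7.11 at 9 hpi and 18.6 by 18 hpi, a change of 1.62. The glucuronosyltransferase gene ugt5d1 had 21.0, 3.22 and 8.26, a change of 1.48, at a region centred at −4599 bp. Its value was lowest at 9 hpi, and no interval was called at either injured time. The membrane protein gene tmem181 had 10.6, 10.8 and 19.96, a change of 1.18, and nav1, a neuron navigator that binds microtubules, had 10.1, 9.77 and 17, a change of 1.09. Both were level between control and 9 hpi and highest at 18 hpi. At the region of highest signal within 5000 bp of the start, tmem181 had −0.19, LOC103909303 −0.69 and LOC101887022 −0.39, so their direction depends on which region is taken. The other 3 were per1a, krt4 and scxa, given above. Next in rank were rtn2b and ppm1nb at 0.99, dpys at 0.97 and napba at 0.94, under the limit.

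Away from promoters, the greatest falls with signal at or above that median were at regions with less signal in control than at 9 hpi. In the gene slc44a4, a choline transporter-like protein, a region of 1000 bp on chromosome 19, 1326601 to 1327600, had 1.64 in control, 30.3 at 9 hpi and 6.36 by 18 hpi, a change of −1.74. Next among regions of 1000 bp or longer was ptprr, a receptor phosphatase, where a region on chromosome 4, 72653001 to 72654400, had 6.98, 50.5 and 12.6, a change of −1.58. In acss2, an enzyme that makes acetyl-CoA from acetate, a region on chromosome 23, 9347201 to 9348400, had 5.84, 35.1 and 8.97, a change of −1.51. All 3 were highest at 9 hpi and above control at 18 hpi. The 3 falls greater than that of slc44a4 with a gene given, nearest LOC561879, vars2 and LOC796432, were at regions of 200 to 600 bp.

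Rises away from promoters were led by dennd5b, with 8.83, 8.67 and 20.7 and a change of 1.51 at a region of 200 bp. In zgc:162939 a region on chromosome 8, 30202801 to 30204600, had 5.36, 7.88 and 18.9, a change of 1.51. In egln1a, a prolyl hydroxylase that senses oxygen, a region on chromosome 13, 48892201 to 48893600, had 5.03, 9.93 and 20.8, a change of 1.35. These 3 were highest at 18 hpi. In plxna3, a semaphorin receptor, it was 7.38, 7.89 and 16.7 and 1.34. In clstn1, a calsyntenin, and pdlim4, a protein of actin fibres, the order was another: clstn1 had 20.3, 4.85 and 10.6, a change of 1.34, and pdlim4 had 13.8, 5.72 and 13.4, a change of 1.45. In both the 9 hpi value was the lowest and the 18 hpi value did not exceed control.

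In 33 genes at least 2 kept regions passed 2-fold in the same direction, 21 of them higher and 12 lower. How many genes had at least 2 kept regions is not given here, so the count has no background share. Genes with many kept regions, such as ncam1a with 18, reach it more easily. In chd7, a chromatin remodeller of neural crest and stem cells, 3 of 8 regions were higher, all inside the gene, at 22731, 46531 and 52931 bp from its start. Their averages at 9 and 18 hpi were 5.10 and 12.8, 6.02 and 12, and 5.995 and 11.5. The region nearest to its start, with 17.3 in control, 30.44 and 24.01, had a change of 0.02, and the median of the 8 was 0.90. In cmtm4, a membrane protein, and in sept12, a septin of the cytoskeleton, 3 of 8 regions were higher as well. On the lower side were rorcb with 2 of 3 regions, acss2 with 2 of 4 and ptprr with 2 of 7. At ptprr the region 330 bp from the start had 16.4, 62.0 and 24.5, a change of −0.95, while another at −2370 bp had 42.7, 79.9 and 61.9, a change of −0.01. Regions of 1 gene share a locus and are not independent.

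The other marks, which took no part in ranking H3K27Ac, moved less over the same hours. For H3K4me3 the median change of 14059 kept regions was 0.03 as deposited, with 33 regions higher, or 0.235%, and 70 lower, or 0.498%. For H3K27me3 it was −0.02 over 13590 kept regions, with 2 higher, or 0.0147%, and 4 lower, or 0.0294%. The shift of −0.35 in H3K27Ac had no counterpart of that size in the other 2 marks. Those marks have their own libraries, so they do not show how the H3K27Ac libraries compare in enrichment.

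At lower H3K27Ac regions the median change of H3K4me3 was above 0, and at higher ones it was below 0. Of the 306 lower regions 105 overlapped an H3K4me3 region, or 34.3%, and the median average of H3K4me3 there was 10.8 in control, 12.6 at 9 hpi and 15.05 by 18 hpi. Its median relative change was 0.26, and it was above 0 in 76.2% of them, against 0.01 and 51.9% over the H3K4me3 overlaps of kept regions. Of the 293 higher regions 24 overlapped H3K4me3, or 8.19%, with a median average of 27.3, 26.6 and 20.8. Their median relative change was −0.16, with 33.3% above 0. Without H3K27Ac regions under 1000 bp the medians were 0.20 over 53 regions and −0.16 over 23. Of the H3K4me3 regions at lower and higher places, 54 of 105 and 17 of 24 reached that mark's own signal filter. Over kept H3K27Ac regions 13053 of 15453 did, with a median average of 28.45 in control, 27.3 at 9 hpi and 28.8 by 18 hpi. H3K4me3 changes were not centred on like signal, so its level was not held equal in this comparison. Over 11577 start regions kept in both marks, Pearson's r between the H3K27Ac and H3K4me3 changes was −0.20 and Spearman's rho −0.19, across genes that are not independent and share the 2 pools of each time, and this describes these libraries only. At H3K27me3 regions that overlapped lower or higher H3K27Ac regions the median relative change was −0.02 and −0.01, the latter also its value over all kept regions.

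**Figure D5:**
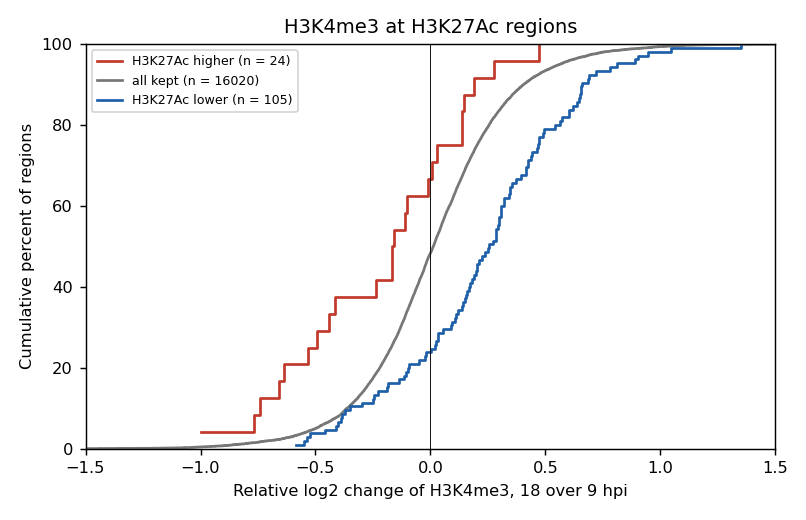
Cumulative percent (vertical axis) of the relative log2 change of H3K4me3 from 9 to 18 hpi (horizontal axis) at H3K4me3 regions that overlap H3K27Ac regions higher at 18 hpi (red, 24), lower (blue, 105) or all kept (grey, 16020 overlaps, of which some share an H3K4me3 region). The blue curve lies to the right, with 76.2% of changes above 0, and the red curve to the left, with 33.3% above 0.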

How the data were processed

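H3K27Ac was measured by chromatin immunoprecipitation and sequencing in 1 library each of control, 9 hpi and 18 hpi muscle, with groups from the sample labels. The submitters' processing notes name danRer10 as the build, and BWA, MACS2 2.1.0 and SICER 12.1 as tools, without roles or thresholds. The authors deposited, for each library, called intervals and, for each mark, merged regions with the signal of each library (average and maximum tag pileup), in columns of other kinds a 0 or 1 for the presence of an interval, gene names, distances to gene starts and promoter counts. How libraries were normalized to each other is not stated in those sources. Library depth is likewise unknown, so counting precision could not be worked out. Intervals lie on a grid of 200 bp. Where region and interval bounds were equal, 100% of averages agreed between the table column and the interval list of the same library. Columns without a matching sample numbered 0. The input library was not used here. Gene names and coordinates, counted from 1, are those of the files; no genome was used and no sequences are printed.

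The change was log2((average at 18 hpi + 1)/(average at 9 hpi + 1)), less its median over kept regions, those whose mean of the 3 averages reached the 25th percentile of the table (7.78). The pseudocount of 1 understates the change of weak regions. The like-signal value subtracts instead the median within 10 equal parts of mean signal, cut over kept regions. Regions below the filter take the median of the weakest part, so they are not centred on like signal. Each start region counts once in a list, and start regions carry no signal filter unless called kept. With 1 library per group no test was run. Exact (Clopper-Pearson) 95% intervals cover counting error only. Counting was tested on simulated data. Python 3.11.15, pandas 2.3.3, NumPy 2.4.6, SciPy 1.17.1 and matplotlib 3.10.9 were used.

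The comparison, its lists and its tests were chosen with earlier results of these data known, so no list is independent evidence. Named genes are the 12 greatest rises and falls with a mean signal at or above the median of the table (10.6), list members past 2-fold or, where there are none, the 2 at each end, the 6 greatest non-promoter changes each way, and up to 3 further members of textbook standing in the myogenic, immune and matrix lists. For length, the description of several lists names fewer. The clock roles, the 1000 bp limit, regions counted per gene, and ccne1, ccne2, mcm2, rrm2, ndufa4, cs, ldb3b, cacna1sa, col12a1a, thy1, ccl25b, acta1a and the greatest changes of all regions were chosen after values had been seen. Alternatives were other pseudocounts, filters, centring, maximum pileup, a 3-fold limit and other rules for the start region.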

Additional observations from a re-analysis of the deposited data

How the results depend on the processing

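Counts past 2-fold moved by over 1.5 times under most choices tried. Reversed directions were counted only for the 43 named genes past 2-fold. At that size the centring choices could not turn the sign and another pseudocount hardly could, so an unturned sign is no check there. Named genes under 2-fold were not counted, and some of them, such as ckmb, were above 0 after centring and below 0 as deposited. Given in turn are the kept regions higher and lower at 18 hpi, the median change as deposited, the percent of promoter regions lower and higher, the percent of other regions lower and higher, and the start regions higher and lower, against 293, 306, −0.35, 0.784, 0.357, 1.18, 1.53, 74 and 110. A pseudocount of 5 gave 35, 84, −0.27, 0.262, 0.0574, 0.277, 0.168, 5 and 32. A pseudocount of 0.1 gave 466, 423, −0.37, 1.04, 0.523, 1.68, 2.48, 112 and 156. No filter gave 661, 593, −0.27, 1.35, 0.647, 1.48, 2.29, 47 and 170, and a filter at the 50th percentile 99, 122, −0.44, 0.470, 0.144, 0.788, 1.051, 110 and 70. Maximum pileup gave 1159, 397, −0.66, 0.982, 1.397, 1.57, 6.06, 290 and 144. Without centring there were 41, 1490, −0.35, 4.90, 0.0638, 4.66, 0.1999, 13 and 718. Centring on like signal gave 90, 506, 0 by construction, 1.11, 0.134, 2.14, 0.445, 21 and 180. A 3-fold limit gave 13, 24, −0.35, 0.0510, 0.0255, 0.103, 0.0580, 3 and 11. Regions of 1000 bp or longer gave 244, 159, −0.33, 0.464, 0.341, 0.645, 1.38, 67 and 68. Start regions within 1000 bp gave 29 higher and 92 lower. The region of highest signal gave 63 higher and 111 lower, 17 in the lists and 16 of the ranked genes, each within 1.5 times.

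Of the start regions in the lists 17 passed 2-fold, and 3 with a pseudocount of 5, 36 by maximum pileup, 60 without centring, 15 at like signal and 8 within 1000 bp. Of the 24 genes ranked by size 20 passed 2-fold, and 13 with a pseudocount of 5. Over all 43 named genes past 2-fold, 22 passed with a pseudocount of 5, 32 by maximum pileup, 33 at like signal and 38 at the region of highest signal. That last choice reversed the change of a phenylalanine tRNA gene, trnaf-gaa (0.13), LOC103909303 (−0.69), LOC101887022 (−0.39) and tmem181 (−0.19), since it takes another region. The difference between promoter and other regions was −0.05 at like signal. The median of all start regions moved from −0.14 to −0.49 without centring and to −0.03 at like signal. No paired analysis was possible because each group has 1 library and the labels give no replicate numbers. The unknown depth limits all counts of weak regions.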

Other observations

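Outside the gene lists, single genes past 2-fold were looked up after the values had been seen, and they are given as values. The cytokine gene il26 had an average H3K27Ac pileup of 3.35 in control, 13.4 at 9 hpi and 2.42 by 18 hpi at its start region, a change of −1.73, with a mean signal below the filter. Its value was high at 9 hpi alone. Genes of mitochondrial function outside the list included pdss2 and ndufaf6, with strong start regions that were lower at 18 hpi. At pdss2, an enzyme of coenzyme Q synthesis, the average was 23.7, 60.1 and 21.0, a change of −1.13, and at ndufaf6, an assembly factor of complex I, it was 37.4, 70.08 and 25.5, a change of −1.08. By maximum pileup the changes of the same regions were −0.33 and −0.53.

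The co-chaperone gene cdc37 had 5.42, 4.88 and 15.2, a change of 1.81 at a region of 1200 bp on chromosome 1, 58446401 to 58447600, the greatest among start regions. Its value was highest at 18 hpi.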
